A study of Mus musculus with 120 samples.

Results

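The sarcomere is the contractile unit of striated muscle, and 40 genes that build or supply it in skeletal muscle were followed through biopsies of a scaffold placed under the skin. They were chosen by name from a fixed list of skeletal muscle genes, and all 40 were found among the 55487 genes listed for both sequencing batches. Female NOD/ShiLtJ mice (NOD), which develop autoimmune diabetes spontaneously, and NOR/LtJ mice (NOR), a related strain that stays normoglycemic, carried microporous poly(ε-caprolactone) scaffolds that fill with host cells and serve as an immunological niche (IN). Of the 120 libraries, 58 came from 10 NOD mice that became hyperglycemic (progressors), 39 from NOD mice that did not (nonprogressors) and 23 from 5 NOR mice. Every mouse, controls included, carried INs under the skin of the back, placed by surgery under an analgesic (carprofen), and no other treatment separates the groups.

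Each condition has libraries from 6 weeks of age, when explants began, and later INs were taken out in turn and replaced. Progressor libraries then came from −7, −5, −3 and −1 weeks relative to the onset of hyperglycemia and from onset itself, whereas nonprogressor and NOR libraries followed from week 10 to week 22 at steps of 4 weeks. For nonprogressors, 6 libraries of batch 1 are dated only by the days since implantation (31, 38 and 108 days). They entered no fold change, but the fits of batch 1 over time used them to estimate the spread between libraries. They are also part of the descriptions over all libraries. Batch 1 held 74 libraries (23 NOR, 26 nonprogressor and 25 progressor) and batch 2 held 46 (13 nonprogressor and 33 progressor), with all −7 week libraries in batch 2. The nonprogressors of batch 2 were taken only at 6 and 14 weeks. Biopsies of the same mouse are not independent, and the mice of the batches differ, except that progressor mice 1 to 4 have their −7 week library in batch 2.

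In a sarcomere, thick filaments of myosin slide along thin filaments of actin that are anchored in the Z-disc, and the giant protein titin spans from the Z-disc to the middle of the thick filament. Calcium released from the sarcoplasmic reticulum starts the movement through the troponins, and creatine kinase and glycolysis supply the ATP. Each adult fibre expresses mainly a single myosin heavy chain, so these genes also report the fibre type. In mice a thin sheet of skeletal muscle, the panniculus carnosus, lies in the skin, close to where a subcutaneous scaffold sits.

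The 40 genes were read by role. The thick filament had 12: the heavy chains *Myh4* (type 2B, the fastest), *Myh1* (type 2X), *Myh2* (type 2A), *Myh7* (slow, type 1), *Myh3* (embryonic) and *Myh8* (perinatal), the fast light chains *Myl1* and *Mylpf*, the myosin binding proteins *Mybpc1* (slow) and *Mybpc2* (fast), and the M-band proteins *Myom1* and *Myom2*. The thin filament had 8: skeletal α-actin (*Acta1*), nebulin (*Neb*), the fast troponins *Tnnc2*, *Tnni2* and *Tnnt3*, β-tropomyosin (*Tpm2*) and the leiomodins *Lmod2* and *Lmod3*, which nucleate actin filaments. The Z-disc and titin group had 9 (*Ttn*, *Actn2*, *Actn3*, *Ldb3*, *Myot*, *Myoz1*, *Nrap*, *Xirp2* and *Smpx*), calcium handling had 6 (the fast calcium pump *Atp2a1*, the calsequestrins *Casq1* and *Casq2*, the release channel *Ryr1*, triadin *Trdn* and the calcium buffer *Pvalb*) and energy supply had 5 (*Ckm*, *Ckmt2*, *Eno3*, *Pygm* and myoglobin, *Mb*). The heavy chains *Myh3*, *Myh2*, *Myh1*, *Myh4* and *Myh8* lie next to each other on chromosome 11, and *Myh7* lies on chromosome 14 (GRCm38). *Acta1* (ENSMUSG00000031972) spans chr8:123891769-123894751 and *Ckm* (ENSMUSG00000030399) chr7:19404776-19422841, while *Myh4* (ENSMUSG00000057003) spans chr11:67238029-67260446.

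Because the members moved together across libraries, the 250 bases before the annotated start of 4 of them are shown: 2 abundant genes (*Acta1*, *Ckm*) and the heavy chains of the fibre types that led most libraries (*Myh4*, *Myh1*). The sequences are from RefSeq (GRCm38.p6), each read 5′ to 3′ on the strand of its gene: *Acta1*, chr8:123894776-123895025, minus; *Ckm*, chr7:19410844-19411093, plus; *Myh4*, chr11:67237562-67237811, plus; *Myh1*, chr11:67199852-67200101, plus. Capitals mark the E-box CAGCTG, a hexamer that myogenic factors can bind, and the TATA box TATAAA on either strand (TTTATA on the opposite strand).
Acta1: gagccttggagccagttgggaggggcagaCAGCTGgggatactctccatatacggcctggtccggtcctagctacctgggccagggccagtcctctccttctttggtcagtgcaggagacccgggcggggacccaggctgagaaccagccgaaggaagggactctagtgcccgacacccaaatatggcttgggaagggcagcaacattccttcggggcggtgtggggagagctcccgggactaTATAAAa
Ckm: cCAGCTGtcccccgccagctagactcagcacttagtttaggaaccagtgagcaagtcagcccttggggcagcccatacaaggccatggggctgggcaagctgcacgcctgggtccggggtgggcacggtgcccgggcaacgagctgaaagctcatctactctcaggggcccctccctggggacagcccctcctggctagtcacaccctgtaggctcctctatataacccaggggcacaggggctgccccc
Myh4: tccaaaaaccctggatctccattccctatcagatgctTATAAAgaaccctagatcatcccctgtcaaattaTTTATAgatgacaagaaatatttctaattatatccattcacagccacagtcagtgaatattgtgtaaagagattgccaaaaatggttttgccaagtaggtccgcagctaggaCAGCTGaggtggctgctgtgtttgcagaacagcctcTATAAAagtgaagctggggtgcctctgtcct
Myh1: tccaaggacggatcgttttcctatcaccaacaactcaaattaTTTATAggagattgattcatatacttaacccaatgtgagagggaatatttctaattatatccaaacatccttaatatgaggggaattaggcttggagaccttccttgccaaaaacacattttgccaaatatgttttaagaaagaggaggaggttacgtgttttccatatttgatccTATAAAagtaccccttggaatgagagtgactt

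The CAGCTG hexamer began at −221 in *Acta1*, −249 in *Ckm* and −67 in *Myh4*, counted from the annotated start, and these letters are not in the *Myh1* window. The nearest TATA box began at −31 in *Myh4* and −32 in *Myh1*. The RefSeq table held a promoter window of 250 bases before to 50 after the start for 31 of the 40 members, and windows for 27025 genes in all. CAGCTG occurred in 15 of the 31 members (48.4%) and in 18.3% of all genes, and TATAAA in 7 members (22.6%) and 15.7% of all genes. The members with TATAAA were *Acta1*, *Myl1* and the 5 heavy chains on chromosome 11. On both strands, the M-CAT core CATTCC was in 8 members (25.8% against 16.6% of all genes), the CArG box in 4 (12.9% against 1.81%) and the MEF2 site in 2 (6.45% against 0.636%). These are matches of letters and no measure of binding.

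The libraries held 4722396 to 56185434 counts, and levels are given as CPM, in which the counts of a gene are scaled to the total of its library. The 40 members together made up 51.5 CPM in the lowest library (progressor mouse 3 at −7 weeks) and 97784 CPM in the highest (progressor mouse 5 at 6 weeks), where they took 9.78% of all counts. This is a 1901-fold range, with a median of 2195 CPM. The sum was over 10000 CPM in 34 libraries, under 1000 CPM in 51 and between these in 35. In bulk RNA, fewer muscle fibres in a biopsy and less muscle RNA per fibre cannot be told apart.

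The level differed mainly between libraries of the same group. Group membership accounted for 40.6% of the spread of the log2 sum in batch 1 and 28.4% in batch 2, and libraries of the same group had a standard deviation of 2.45 and 2.60 on the log2 scale. In NOR at 14 weeks, for example, the sum was 116, 247, 1097, 5579 and 44434 CPM in the 5 mice. Progressors at −7 weeks read 51.5, 65.9, 91.0, 321, 3113, 15163, 18068 and 18217 CPM. The first 3 of these and the 15163 belong to progressor mice 1 to 4.

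Levels moved widely within a mouse as well. Progressor mouse 5 of batch 1 went from 97784 CPM at 6 weeks to 314 CPM at −5 weeks, and then read 15685, 2801 and 17876 CPM at −3 and −1 weeks and onset. Progressor mouse 2 of the same batch read 96.3, 3219, 10355, 6503 and 20260.5 CPM at those times. Pairs of libraries from 1 mouse were on the same side of their group means in 50.0% of 42 NOR pairs, 50.0% of 46 nonprogressor pairs and 44.2% of 120 progressor pairs. For pairs from different mice these shares were 50.2%, 49.1% and 49.3%.

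**Figure D1:**
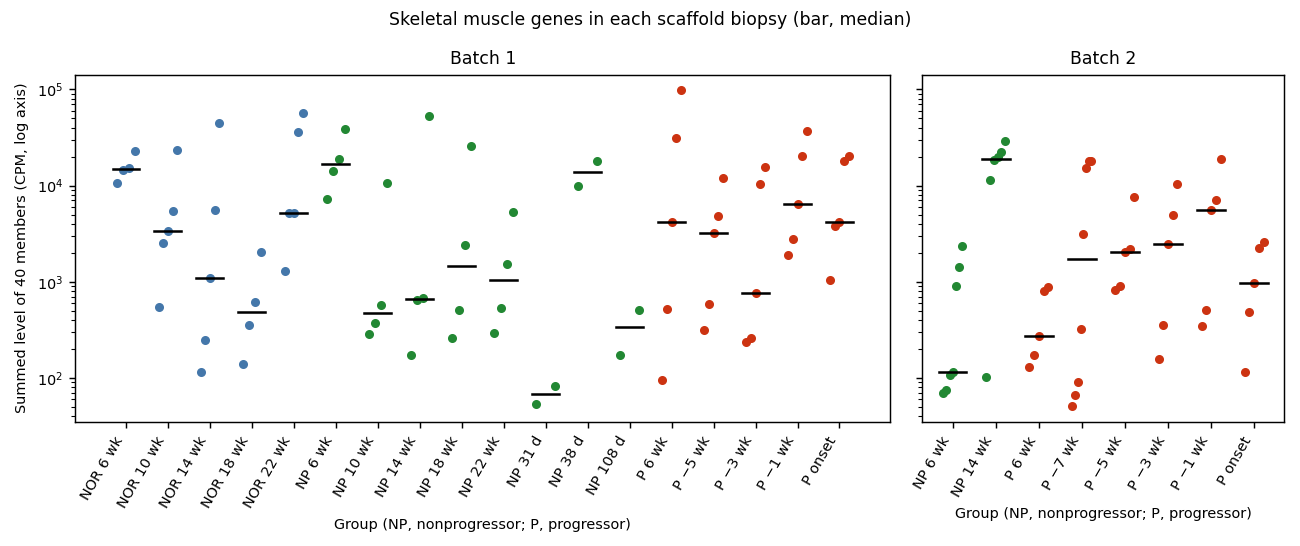
Summed level of the 40 members in each library (points; CPM, log axis) by group and batch, with the group median as a bar. In batch 1 the NOR and nonprogressor libraries at 6 weeks lie at 7253 CPM or higher, whereas in batch 2 every 6-week library lies at 2335 CPM or lower.

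A few libraries stood apart in depth or composition. In the NOR library of mouse 5 at 18 weeks, 85.7% of counts fell on 1 ribosomal RNA gene, and the members read 356 CPM with that gene and 2488 CPM without it. The nonprogressor library of mouse 3 at 18 weeks was the shallowest (4722396 counts) and read 26010 CPM. No pair of the 239 replicate pairs within groups agreed within sampling noise (the chi-square over its degrees of freedom was 11.97 at the lowest).

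Skeletal muscle was present in nearly all libraries by its own genes. All 40 members had a count in 89 libraries, and the fewest in any library was 30. A level over 1 CPM was reached by all 40 members in 20 libraries and by 7 in the lowest one. The lowest library, progressor mouse 3 at −7 weeks, had 26.0 CPM of *Ttn* and 8.84 CPM of *Tpm2*, which smooth muscle and fibroblasts also make, but 0.0551 CPM of *Acta1* and 0.0826 CPM of *Myh4*. Of 5 heart markers, *Nppa*, a hormone of the atria, was at most 0.806 CPM and at 0 in 42 libraries, and *Tnni3* was at most 1.51 CPM. *Myh6* reached 55.3, *Tnnt2* 11.5 and *Actc1* 10.4 CPM, and the 5 together ranged from 0 to 59.2 CPM with a median of 1.51. Hair follicle was present in some biopsies: the follicle keratin *Krt27* was at 0 in 84 libraries and reached 679 CPM.

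*Ttn* took a median of 50.6% of the summed counts, and its exons span 116825 bases. Per kilobase of exon, *Acta1* was first with a median of 84.5 CPM per kb (0.0359 to 6030), followed by *Atp2a1* (31.4), *Tpm2* (15.8), *Ckm* (15.3) and *Ttn* (10.3). Fast-fibre proteins came next on this scale, with *Mylpf* at 9.95, *Myh4* at 9.53 and *Pvalb* at 9.23 CPM per kb. The lowest medians belonged to *Casq2* (0.223), *Myh3* (0.0930), *Myh7* (0.0888) and *Myh8* (0.0447). The order among the first 5 rests on medians whose libraries overlap almost entirely.

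*Acta1* ran from 0.0551 to 9262 CPM over the 120 libraries (median 130), *Ckm* from 0.0408 to 3035 CPM (median 44.5) and *Pvalb* from 0 to 709.5 CPM (median 9.60). These 3 genes, an actin, a kinase and a calcium buffer, moved nearly in parallel. Pearson's r on log2(CPM + 0.5) between 1 member and the sum of the others, averaged over the batches (74 and 46 libraries), was over 0.9 for 36 members and highest for *Neb* (0.996), *Ryr1* (0.994) and *Atp2a1* (0.994). It was lowest for *Myh3* (0.504), *Myh7* (0.574), *Casq2* (0.615) and *Myh8* (0.672), the genes of embryonic, slow and perinatal fibres and the slow and cardiac calsequestrin. These correlations are descriptions over libraries that include several biopsies of a mouse.

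**Figure D2:**
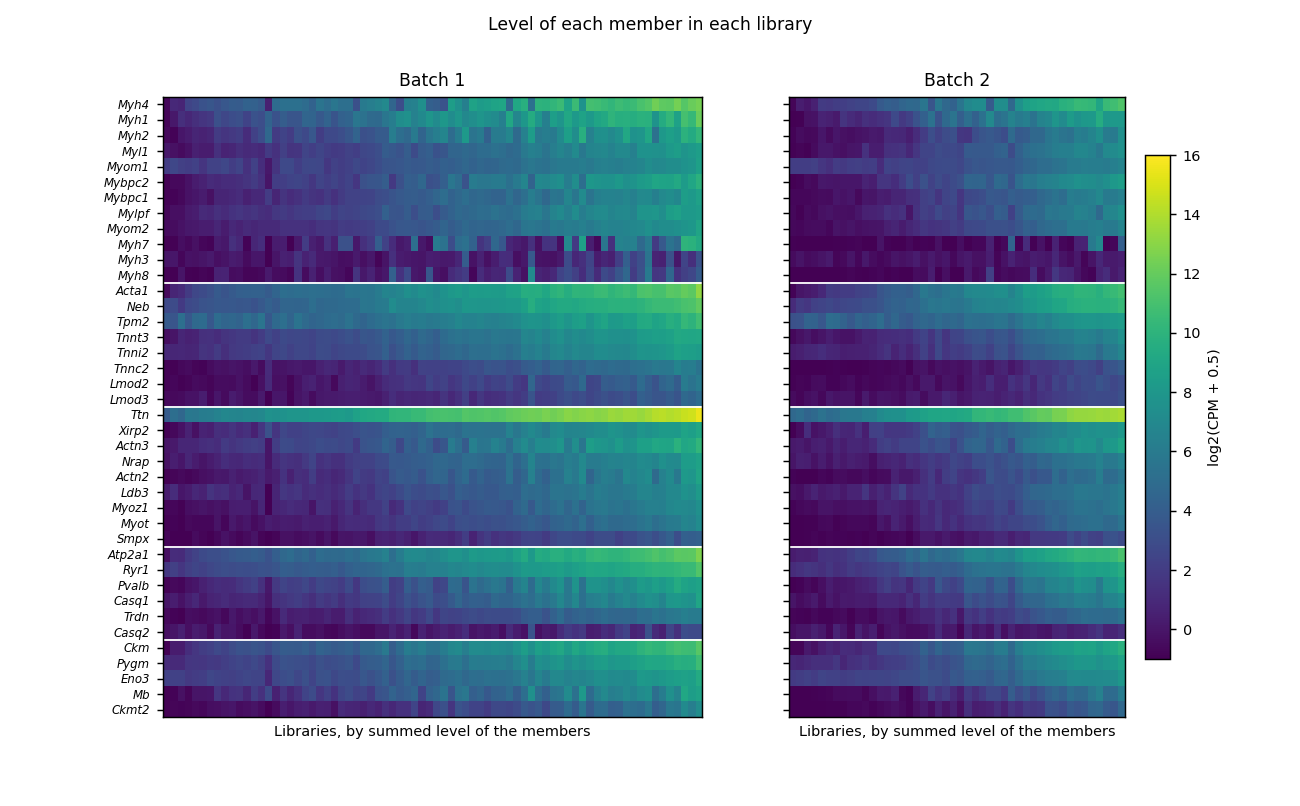
Level of each member (rows, by role from top: thick filament, thin filament, Z-disc and titin, calcium handling, energy) in each library (columns, ordered by summed level), as log2(CPM + 0.5), in each batch. The rows brighten together from left to right except for *Myh7*, *Myh3*, *Myh8* and *Casq2*, which vary from library to library.

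Outside the list, the genes most like the members were other genes of the muscle fibre. Among 15313 genes with a mean of at least 1 CPM in each batch, those with the highest mean r to the summed level included *Klhl31* (0.989), *Cacna1s* (0.988), *Mypn* (0.980), *Apobec2* (0.979), *Ppp1r3a* (0.978), *Klhl41* (0.978), *Scn4a* (0.976), *Tcap* (0.976) and 1110002E22Rik (0.971). *Mypn* and *Tcap* encode sarcomeric proteins, and *Cacna1s* and *Scn4a* encode the calcium and sodium channels of the fibre membrane.

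The heavy chains differed in composition between libraries of similar total. Shares were taken among the counts of the 6 heavy chains in the 91 libraries with at least 1000 such counts (61 in batch 1, 30 in batch 2). *Myh4* had the largest share in 71 libraries, *Myh1* in 17 and *Myh2* in 3. The median share was 64.2% for *Myh4* (2.41 to 95.04), 24.2% for *Myh1* (4.08 to 79.6), 7.44% for *Myh2* (0.747 to 52.2) and 0.496% for *Myh7* (0 to 22.2). *Myh8* reached 11.98% and *Myh3* 4.00%. With a minimum of 100 counts, 114 libraries entered and *Myh4* led in 92.

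The 2B chain was a minor one in 7 libraries, with less than 10% *Myh4*, of which 6 were in batch 1. Progressor mouse 2 held 3 of them, at −5 weeks (5.82% *Myh4*, 74.2% *Myh1*), −3 weeks (3.02% and 56.5%) and −1 week (3.91% and 79.6%). The others were progressor mouse 1 at onset (2.41% *Myh4*, 61.6% *Myh1*), NOR mouse 4 at 18 weeks (3.74% and 77.3%) and at 10 weeks (5.15% and 48.6%) and, in batch 2, progressor mouse 7 at onset (9.14% and 78.9%). In each of these 7 libraries the 2X chain *Myh1* had the largest share.

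By condition, *Myh4* was not the leading chain in 9 of 23 progressor libraries of batch 1, 4 of 19 NOR libraries and 1 of 19 nonprogressor libraries. The nonprogressor libraries of batch 1 here include those dated by days that had enough counts. In batch 2 *Myh4* was not the leading chain in 5 of 22 progressor and 1 of 8 nonprogressor libraries. The median *Myh4* share in batch 1 was 49.0% in progressors, 62.0% in NOR and 65.6% in nonprogressors, and the ranges overlapped widely. The difference between conditions was not tested, and progressor mice 1 and 2 alone hold 7 of the 9.

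**Figure D3:**
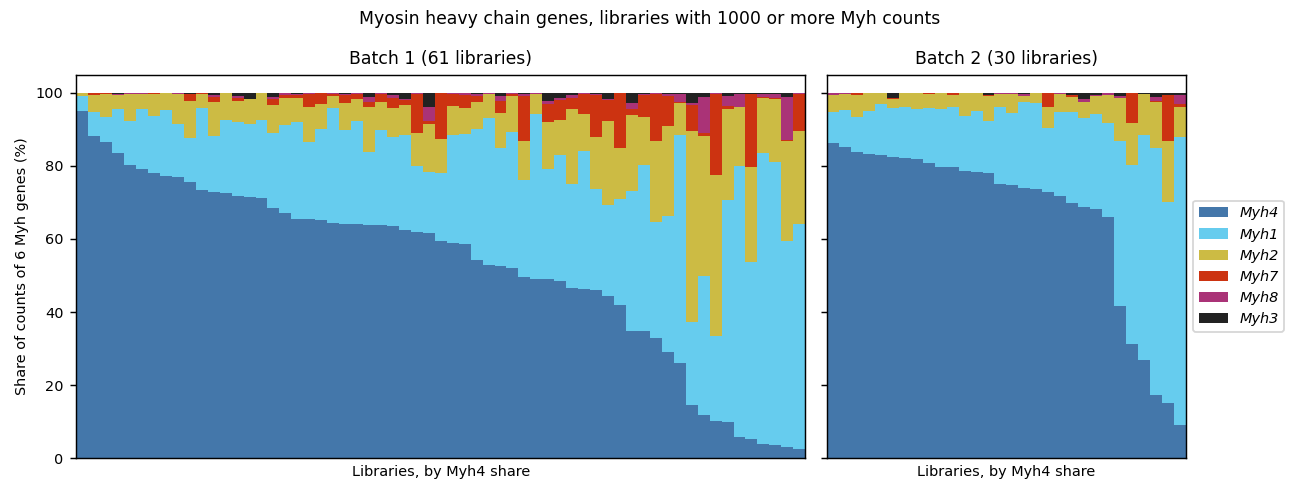
Share of each of 6 heavy chains among their summed counts (stacked bars, %) in each library with at least 1000 such counts, ordered by the *Myh4* share, in each batch. *Myh4* fills most of the bar in most libraries, and *Myh1*, *Myh2* or *Myh7* widen toward the right.

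The slow chain *Myh7* exceeded 5% of heavy-chain counts in 17 libraries, 15 of them in batch 1. Its median share was 1.402% in batch 1 and 0.0594% in batch 2. It was highest in progressor mouse 5 at −3 weeks (22.2%, with 44.2% *Myh2*), NOR mouse 4 at 10 weeks (19.95%) and nonprogressor mouse 2 at 14 weeks of batch 1 (14.9%). The 3 nonprogressor libraries of batch 1 at 14 weeks with enough counts all held it, at 11.4% (mouse 3), 12.3% (mouse 4) and 14.9% (mouse 2). The libraries of mice 3 and 4 were low in muscle, with 678 and 642 CPM of the members. They held 1913 and 1549 heavy-chain counts, not far above the minimum, against 226447 in mouse 2.

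A slow-fibre set outside the members was set beside *Myh7*. The 6 genes (*Tnnc1*, *Tnni1*, *Tnnt1*, *Myl2*, *Myl3* and *Myoz2*, the slow troponins, slow light chains and a Z-disc protein) summed to 0.284 to 493.2 CPM, with a median of 2.21 CPM. Pearson's r with *Myh7* was 0.952 for *Myl2*, 0.938 for *Tnnc1* and 0.891 for *Tnni1* over the 74 libraries of batch 1, and 0.968, 0.916 and 0.961 over the 46 of batch 2. It was lowest for *Myoz2*, at 0.835 and 0.791. *Myh7* was less alike to *Myh4* (0.573 and 0.389). Among the fast genes, *Myh4* followed *Pvalb* (0.974 and 0.982) and *Actn3* (0.967 and 0.981), and *Myh1* followed *Myh2* (0.958 and 0.967). These pairs do not separate fibre type from the amount of muscle RNA, because the fast genes also followed the sum of the other members. That r was 0.963 and 0.981 for *Pvalb*, 0.967 and 0.985 for *Actn3*, 0.963 and 0.971 for *Myh1* and 0.942 and 0.977 for *Myh2*. For *Myh4* it was 0.909 and 0.968, but for *Myh7* 0.657 and 0.490.

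**Figure D4:**
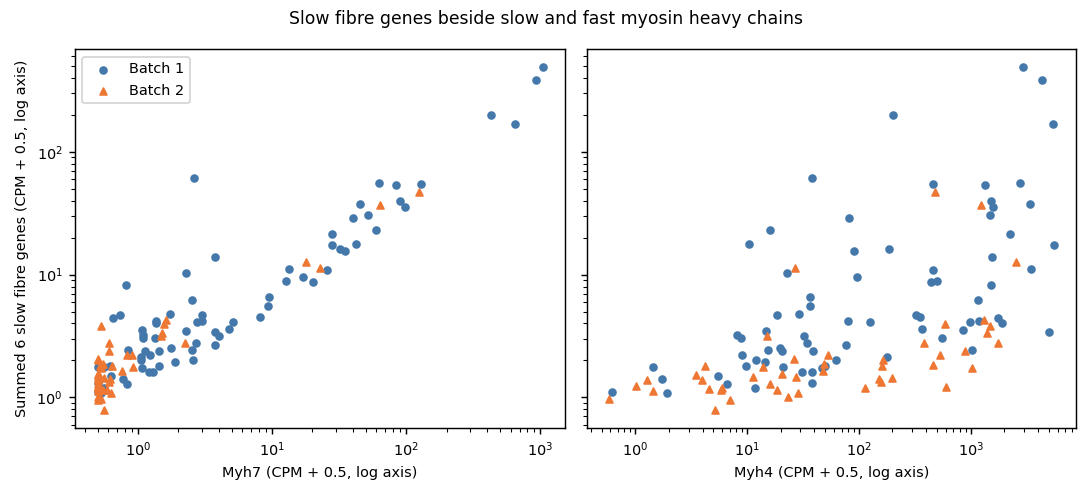
Summed level of 6 slow-fibre genes outside the members (vertical axis, CPM + 0.5, log axis) against *Myh7* (left) and *Myh4* (right) in each library of batch 1 (circles) and batch 2 (triangles). Points form a narrow band against *Myh7* and a broad cloud against *Myh4*.

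One library off that band carried genes of young fibres. In progressor mouse 2 at −3 weeks, *Myh7* was at 2.11 CPM while the slow set reached 60.7 CPM, with 24.6 CPM of *Tnni1* and 23.0 CPM of *Tnnt1* but no count of *Myl2*. The same library had the highest level of the 120 for *Myh8* (149 CPM), for the myogenic factor *Myog* (14.4 CPM, median 0.164), for the fusion protein *Mymk* (6.68 CPM, at 0 in 65 libraries) and for the acetylcholine receptor subunits *Chrng*, the fetal one (4.01 CPM), and *Chrna1* (12.7 CPM). *Myh8* held 11.98% of its heavy-chain counts. The next highest *Myh8* share, 9.85%, was in progressor mouse 1 at −1 week, with 1.15 CPM of *Mymk* and 1.85 CPM of *Chrna1*.

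Across libraries *Myh8* and *Myh3* were more alike to *Myog* than to *Myh4*. Pearson's r of *Myh8* with *Myog* was 0.896 in batch 1 and 0.773 in batch 2, against 0.522 and 0.564 with *Myh4*. For *Myh3* the values were 0.811 and 0.606 with *Myog*, and 0.463 and 0.356 with *Myh4*. The receptor subunit *Chrng* was less alike in batch 2, at 0.471 with *Myh8* and 0.280 with *Myh3*, below the values for *Myh4*. For *Myh8* in batch 2, *Chrna1* (0.507), *Chrnd* (0.506) and *Pax7* (0.530) also lay below *Myh4*. With *Acta1*, r was 0.687 and 0.647 for *Myh8* and 0.563 and 0.428 for *Myh3*. Below 1 CPM, where most libraries lie for both chains, such values rest on few counts.

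Whether the muscle genes changed after the first IN was asked within each batch. Fold changes are log2 ratios from edgeR's quasi-likelihood test over all genes that passed a filter on low counts, with p-values adjusted by Benjamini-Hochberg over all genes tested, and a gene was called at an adjusted p under 0.05. All 40 members passed the filter in each comparison. Such a fold compares group means, in which the libraries with most muscle weigh most. These fits had no term for the mouse, except where a replicate block is named. The share of all tested genes called is given beside each count of members, and once per paragraph for the other lists.

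In batch 1 the members were high at 6 weeks in NOR (10674, 14433, 15137 and 23079 CPM) and in nonprogressors (7253, 14245, 18906 and 38413 CPM). Progressors at 6 weeks spread over the whole range, with 96.3, 527, 4231, 31207 and 97784 CPM. Later groups overlapped these, with medians from 486 CPM in NOR at 18 weeks and 477 CPM in nonprogressors at 10 weeks to 5162 CPM in NOR at 22 weeks and 6503 CPM in progressors at −1 week. The nonprogressor libraries labelled by days read 53.8 and 82.7 CPM at 31 days, 9973 and 18023 CPM at 38 days and 175 and 505 CPM at 108 days.

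Later minus 6 weeks was negative for all 40 members in each condition of batch 1, yet few passed the test. In NOR no member was called with edgeR (median log2 difference −1.27, −2.81 to −0.83; 0.0985% of all genes called), and 3 had an unadjusted p under 0.05 (*Myh3*, *Myh8*, *Casq2*). DESeq2 also called none. In nonprogressors, *Myh8* fell by 3.04 (SE 0.93, adjusted p = 0.0232, edgeR) and was the only member called, 2.50% of the members against 6.99% of all genes called lower and 13.1% in either direction. The median over the 40 was −1.75. Without the nonprogressor mouse 2, mouse 3, mouse 1 or mouse 4 of that batch, 10, 4, 0 and 0 members were called.

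In progressors of batch 1, 6 members fell (15.0%), beside 13.2% of all genes called lower and 24.6% in either direction, so the share is near the background. They were the embryonic chain *Myh3* (−2.26, SE 0.70, adjusted p = 0.0136), *Casq1* (−2.56, SE 0.93, adjusted p = 0.0361), *Casq2* (−1.56, SE 0.58, adjusted p = 0.0402), *Tpm2* (−1.94, SE 0.73, adjusted p = 0.0438), *Myh7* (−2.89, SE 1.09, adjusted p = 0.0444) and mitochondrial creatine kinase *Ckmt2* (−2.43, SE 0.93, adjusted p = 0.0482), all from edgeR. The median over the 40 members was −1.91. With the mouse as a replicate block none of the 40 was called. Without the 6-week library of mouse 5, the highest of all, 1 was called and the median was −0.50. With mouse 3 left out, 1 was called as well. In a test of the difference in time effect between NOD and NOR, edgeR called no member (median −0.53, 0 at an unadjusted p under 0.05, 0 by DESeq2) and 0% of all genes.

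In batch 2 the direction was the opposite. At 6 weeks the 12 libraries were low, with 69.6, 75.3, 106, 115, 914, 1438 and 2335 CPM in nonprogressors and 129.7, 171, 276, 800.3 and 877 CPM in progressors. At 14 weeks 5 nonprogressor libraries read 11522, 18451, 19590.5, 22337 and 29134 CPM, and that of mouse 5 read 102 CPM. Of the 6 mice with both ages, 5 went up (mouse 6 from 115 to 11522, mouse 7 from 75.3 to 19590.5, mouse 8 from 2335 to 22337, mouse 9 from 106 to 18451 and mouse 10 from 69.6 to 29134 CPM) and mouse 5 went down, from 914 to 102 CPM.

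In the nonprogressors of batch 2, 38 of the 40 members rose from 6 to 14 weeks beside 15.7% of all genes called higher and 29.1% in either direction. The median was 4.24 on the log2 scale. All 8 thin filament, 9 Z-disc and 5 energy genes rose, with 5 of 6 for calcium handling and 11 of 12 for the thick filament. The smallest p belonged to *Lmod3* (3.24, SE 0.72, adjusted p = 0.000898), *Tpm2* (2.81, SE 0.65, adjusted p = 0.00125), *Myom1* (3.24, SE 0.75, adjusted p = 0.00126), *Myh7* (below) and *Tnni2* (4.04, SE 0.95, adjusted p = 0.0015). *Casq2* (0.29, SE 0.52, adjusted p = 0.718) and *Myh8* (2.77, SE 1.23, adjusted p = 0.0847) did not pass.

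The values behind these folds separate the ages for all but 1 library. *Acta1* read 0.620, 0.790, 3.05, 3.56, 59.9, 114 and 170 CPM at 6 weeks and 3.40, 824, 1058, 1213, 1408 and 1877 CPM at 14 weeks (log2 difference 4.35, SE 1.44, adjusted p = 0.0199, edgeR). *Myh4* read 0.525, 0.953, 3.66, 4.02, 20.1, 114 and 164 CPM at 6 weeks and 2.96, 894, 1237, 1497, 1757 and 2550.2 CPM at 14 weeks (4.87, SE 1.45, adjusted p = 0.0102, edgeR). *Ckm* read 0.354 to 66.4 CPM (median 1.70) and then 1.23 to 887 CPM (median 462), a difference of 4.46 (SE 1.396, adjusted p = 0.0139, edgeR). In all 3 genes the low value at 14 weeks is the library of mouse 5 and the other 5 lie above every 6-week library.

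*Myh7* did not share this pattern. It had 2 counts in all over the 7 libraries at 6 weeks, and at 14 weeks 63.3 CPM in mouse 9 and 17.5 CPM in mouse 10 but at most 0.112 CPM in the other 4. The pooled ratio, 1633-fold, has a counting interval (exact Poisson, 95%, counting error only) of 452 to 13480.4, and it rests on those 2 mice, so the edgeR call (adjusted p = 0.00136) says little about the group. The 2X chain *Myh1* (3.55, SE 1.37, adjusted p = 0.0468) was close to the threshold.

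In the progressors of batch 2, 7 members rose after 6 weeks (17.5%), beside 16.8% of all genes called higher and 33.5% in either direction, again near the background. The 5 with the smallest p were *Myh3* (1.19, SE 0.38, adjusted p = 0.0147), *Lmod3* (2.05, SE 0.73, adjusted p = 0.0273), *Nrap* (3.08, SE 1.12, adjusted p = 0.0309), *Myom1* (1.98, SE 0.73, adjusted p = 0.0334) and *Ldb3* (2.67, SE 0.99, adjusted p = 0.0339) with edgeR, and *Lmod2* and *Ryr1* followed. The median over the 40 was 2.61, 39 were positive and *Casq2* was at −0.52 (SE 0.45). DESeq2 called 29 and the fit with the mouse as a replicate block 2. Leaving out a mouse gave 0 calls without mouse 7 or mouse 10, 1 without mouse 8, 4 without mouse 6, 11 without mouse 1, 2 or 9 and 14 without mouse 3. Later libraries of this batch read 830 to 7577 CPM at −5 weeks, 156 to 10351 CPM at −3, 345 to 18881 CPM at −1 and 116 to 2621 CPM at onset.

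**Figure D5:**
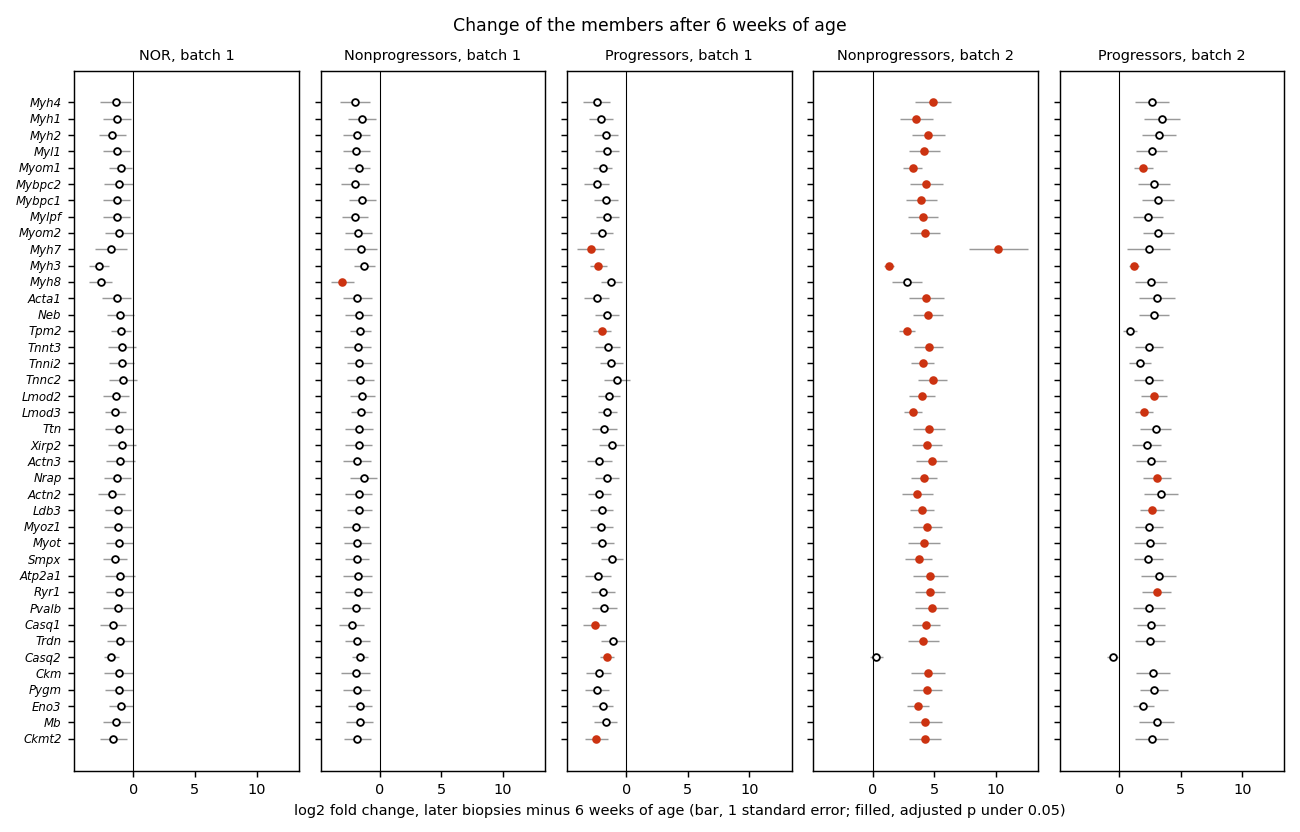
Log2 fold change of each member, later libraries minus 6 weeks, with 1 standard error, in NOR, nonprogressors and progressors of batch 1 and in nonprogressors (14 weeks) and progressors of batch 2. Filled points have an adjusted p under 0.05. Points lie left of 0 in batch 1 and, except for *Casq2* in progressors, right of 0 in batch 2.

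Other tissues under the skin moved with these contrasts. Of 5 adipocyte markers, all rose in the nonprogressors of batch 2 (median 5.75) and in its progressors (4.91), and 1 of 5 fell in the progressors of batch 1 (*Lep*). Their summed level in the nonprogressors of batch 2 was 38.5 to 58.9 CPM at 6 weeks and 18.9, 349, 362, 417, 696 and 757 CPM at 14 weeks, where 18.9 CPM is the library of mouse 5 that was also low in muscle. Of 5 fibroblast markers (collagens, proteoglycans and *Pdgfra*), all fell after 6 weeks in both of these groups (−1.29 and −1.40) and in the progressors of batch 1 (−1.05). At −7 weeks, the adipocyte sum was 1064.7 and 936 CPM in progressor mice 7 and 10, which were high in muscle, but 190 CPM in mouse 4, which read 15163 CPM of the members. In the nonprogressors of batch 1 all 5 epidermal keratinocyte markers fell after 6 weeks (median −4.61), with 3 of 5 fibroblast markers. Of 5 Schwann cell markers, 3 fell in the nonprogressors of batch 2 and in the progressors of batch 1, and 4 of 5 T cell markers rose in the progressors of batch 2. Of all genes, 15.7% were called higher and 13.4% lower in the nonprogressors of batch 2, and 16.8% and 16.7% in its progressors. In batch 1, 6.99% were called lower in nonprogressors and 13.2% in progressors. The part of these tissues in the muscle results was not tested.

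Batch and level could not be separated from cohort and instrument. The fit used 1 batch term for the 7 groups that both batches hold. It had no term for the mouse, so several biopsies of a mouse entered as separate libraries. Its standard errors and p-values take no account of this. By that term all 40 members were lower in batch 2 (100%), beside 33.0% of all genes called lower and 69.0% in either direction. The median was −2.56, from −1.46 for *Casq2* to −5.34 for *Myh7* (SE 1.03, adjusted p = 5.61e-06, edgeR). The smallest p belonged to *Tnnc2* (−4.29, SE 0.59, adjusted p = 2.17e-09), *Tnni2* (−3.46, SE 0.53, adjusted p = 3.23e-08), *Myh3* (−2.71, SE 0.41, adjusted p = 3.32e-08), *Myh8* (−4.17, SE 0.65, adjusted p = 5.12e-08) and *Tpm2* (−2.41, SE 0.38, adjusted p = 8.4e-08). All 40 were called again in each of 21 fits that left out a mouse and in 6 other settings. One of these settings used the 6-week libraries only, where each mouse enters once. Not every group went that way. The median sum was higher in batch 2 for nonprogressors at 14 weeks (19020.5 against 660 CPM) and progressors at −3 weeks (2450 against 762 CPM). For the other shared groups it was lower in batch 2. In the same comparison the adipocyte and epidermal markers did not pass the test (0 of 5 each with edgeR, medians −0.58 and 0.11), nor did those of hair follicle (0 of 5, −0.71). All 4 tested heart markers were lower (median −2.14), as were 3 of 5 Schwann cell and 2 of 5 endothelial markers. T cell markers were higher in 3 of 5 and a B cell marker in 1 of 5, beside 36% of all genes called higher. Fibroblast and macrophage markers each had 3 of 5 higher and 1 lower, and smooth muscle markers 2 higher and 1 lower. The part of these tissues in the batch result was not tested.

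The change with time was compared between batches after the levels had been seen. In progressors the difference (batch 2 minus batch 1) was positive for all 40 members, with a median of 4.37, and 7 were called (17.5%), beside 3.89% of all genes called higher and 6.60% in either direction. The 5 with the smallest p were *Ldb3* (4.49, SE 1.401, adjusted p = 0.0409), *Myh3* (3.64, SE 1.14, adjusted p = 0.0415), *Lmod3* (3.49, SE 1.10, adjusted p = 0.0425), *Myom1* (3.72, SE 1.18, adjusted p = 0.0444) and *Casq1* (4.89, SE 1.56, adjusted p = 0.045) in edgeR's test. None was called without the 6-week library of mouse 5, without any of mice 3, 5, 6, 7, 8, 9 and 10 or without the filter. Without mouse 4, mouse 1 or mouse 2, 14, 16 and 24 were called, and DESeq2 called 30. Of the 5 adipocyte markers, 4 were higher in the same test (median 6.62), and their part in the result was not tested. In nonprogressors, 14 minus 6 weeks differed by a median of 4.76, with 31 members at an unadjusted p under 0.05, but edgeR called none (0.730% of all genes) and DESeq2 called 5. Without nonprogressor mouse 2, whose 14-week library of batch 1 read 52278 CPM, 38 were called.

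Strain, outcome and onset were compared last. For NOD against NOR in batch 1, with the libraries of each mouse summed, no member was called by edgeR or DESeq2 (0 at an unadjusted p under 0.05; median −0.12, from −0.57 for *Myh4* to 1.44 for *Myh8*), while 8.98% of all genes were. For progressors against nonprogressors at 6 weeks, with batch as a term, no member was called by either tool (median −0.09), and 0% of all genes were called. *Myh7* had the largest difference (2.90, SE 1.28, adjusted p = 0.891, edgeR) and the only unadjusted p under 0.05. With a standard error near 0.88 for the median member, only large differences could be detected here.

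Onset did not differ detectably from the weeks before it. In batch 1 the median of onset minus −5, −3 and −1 weeks was 0.37 (0 called by edgeR or DESeq2, 0 at an unadjusted p under 0.05; 0.0358% of all genes called). In batch 2 it was −1.70, with *Myh4* at −3.19 (SE 1.46, adjusted p = 0.144) and *Actn3* at −2.54 (SE 1.22, adjusted p = 0.166), the 2 members at an unadjusted p under 0.05. edgeR called none of the 40 against 13.5% of all genes, and 1 was called by DESeq2 and by edgeR without mouse 10. In this contrast 4 of 5 adipocyte markers (median −2.82), 4 of 5 fibroblast markers (−1.22) and all 5 endothelial markers (−1.20) fell and 4 of 4 tested hair follicle markers rose (median 7.76), and their part in the result was not tested. From −7 to −5 weeks in batch 2 the median was −1.18 and no member was called by edgeR or DESeq2 (0 at an unadjusted p under 0.05), with 0.0550% of all genes called.

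Muscle genes outside the members were counted by list. Of all genes, 15.7% were called higher from 6 to 14 weeks in the nonprogressors of batch 2. In batch 2 against batch 1, 33.0% were called lower. After 6 weeks in batch 1, 6.99% were called lower in nonprogressors. In progressors of batch 1, 11.4% were called higher and 13.2% lower. From 6 to 14 weeks in the nonprogressors of batch 2, all 6 genes of the triad (the junction where the calcium channel meets its release channel, *Cacna1s*, *Jph1*, *Jph2*, *Jsrp1*, *Stac3*, *Cacng1*) rose, as did all 9 other sarcomere genes, 5 of 5 tested slow-fibre genes, 3 of 3 tested differentiation factors (*Myod1*, *Myog*, *Myf6*) and 3 of 5 tested neuromuscular junction genes (*Chrne*, *Chrna1*, *Chrnb1*). The 3 atrophy genes, the ubiquitin ligases *Trim63* and *Fbxo32* and myostatin (*Mstn*), also rose. In batch 2 against batch 1 all 6 triad, all 9 other sarcomere and all 6 slow-fibre genes were lower (slow-fibre median −3.77). In the nonprogressors of batch 1 after 6 weeks, 4 of 7 stem cell and differentiation genes fell (*Pax7*, *Myod1*, *Myog* and *Mymk*; list median −3.03), whereas 0 of 6 slow-fibre and 0 of 6 triad genes did. In the progressors of batch 1, *Fbxo32* rose while *Mstn* fell. *Fbxo32* spanned a narrower range than *Acta1*. It read 7.54 to 243 CPM over the libraries (median 139), against 0.0551 to 9262 CPM for *Acta1*. How closely *Fbxo32* followed the amount of muscle RNA was not tested. Which cells of the biopsy its changes come from was not tested, in either batch.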

How the data were processed

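RNA was measured by ribosome-depleted total RNA-seq of scaffold biopsies, on a different model of NovaSeq instrument in each batch. The authors deposited expected counts per gene, 1 table per batch, and the submitters' processing notes name cutadapt, FastQC, STAR, RSEM, MultiQC and GRCm38, with versions not given in the sources used here. Expected counts share reads among near-identical genes by estimation, so the split among the *Myh* genes is uncertain, as is that between *Acta1* and other actins. Counts were rounded to whole numbers, 4 reporter rows were left out, and CPM was computed from the library totals, with 0.5 added before logs. Every column was mapped to a sample.

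The 40 members and the other gene lists were chosen with earlier results of these data known, so their counts are descriptions. All members were to be named by role, values per library were to be given for *Acta1*, *Ckm*, *Pvalb* and the *Myh* genes, and up to 5 called members with the smallest p were to be named per comparison. Tests used edgeR 4.0.16 (quasi-likelihood, TMM, filterByExpr) in R 4.3.3 on all genes of a batch, with Benjamini-Hochberg adjustment, and DESeq2 1.42.0 as an alternative. The main fits over time and between batches had no term for the mouse. Other alternatives were DESeq2 size factors, robust dispersion, no filter, a replicate block by mouse and leaving out each mouse or a library. The change with time was compared between batches only after the levels were seen. Comparisons within a batch share their 6-week or preonset samples. The code was tested on simulated data.

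The labels number the mice, and the replicate block and the fits that left out a replicate used these mouse numbers, which pair biopsies of the same animal. After removing group means over highly variable genes, the mean correlation between biopsies of a mouse was 0.0208 in NOR, 0.0135 in nonprogressors and −0.0143 in progressors. Between biopsies of different mice it was −0.0543, −0.0612 and −0.0356, which is lower in each condition. Removing the means of small groups pulls such values below 0, so the same-mouse values are to be read beside these. Libraries held 4722396 to 56185434 counts, and counting intervals cover counting error only.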

Additional observations from a re-analysis of the deposited data

Results flagged for a closer look

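Among 230 tests of a group of 4 to 10 libraries (10 measures in each of 23 groups), 23 single libraries stood apart from their group, where chance flags about 1 in 20 groups. The measures share libraries and are not independent. Most of these flags fell on 1 low library and on the genes of slow and young fibres.

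The nonprogressor library of mouse 5 at 14 weeks in batch 2 was far below its 5 companions in 7 measures. The members summed to 102 CPM there against 11522 to 29134 CPM. *Acta1* was at 3.40 CPM (others 824 to 1877), *Ckm* at 1.23 (338 to 887), *Myh1* at 0.877 (150.1 to 299), *Myh2* at 0.219 (45.8 to 182), *Myh4* at 2.96 (894 to 2550.2) and *Pvalb* at 0.767 CPM (135 to 467). Its adipocyte markers were also the lowest of the 6, at 18.9 CPM.

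The slow chain *Myh7* stood out as single high libraries in progressors. It was at 432 CPM in mouse 5 at −3 weeks (others 0.588 to 2.11), at 124 CPM in mouse 10 at −1 week of batch 2 (0 to 0.399) and at 22.2 CPM in mouse 6 at onset of batch 2 (0.0569 to 0.979). *Myh2* was at 48.3 CPM in progressor mouse 8 at −5 weeks, against 7.37 to 10.8 CPM in the others.

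The embryonic chain *Myh3* stood out in 7 libraries. In batch 1 it was at 1.84 CPM in NOR mouse 4 at 14 weeks (others 0.394 to 0.564), at 5.16 in nonprogressor mouse 2 at 14 weeks (0.280 to 0.488) and at 8.47 in nonprogressor mouse 3 at 18 weeks (0.617 to 0.999). In progressors of that batch it was at 14.8 CPM in mouse 4 at −5 weeks (0.355 to 0.834) and at 5.20 in mouse 5 at onset (0.327 to 0.886). In batch 2 it was at 0.695 CPM in nonprogressor mouse 11 at 6 weeks (0.0947 to 0.272) and at 1.39 in progressor mouse 10 at −3 weeks (0.335 to 0.546).

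The perinatal chain *Myh8* stood out in 5 libraries, of which 3 also stood out in *Myh3* by the same rule. It was at 4.27 CPM in nonprogressor mouse 2 at 14 weeks (others 0.0916 to 0.327), at 0.602 in nonprogressor mouse 11 at 6 weeks (0 to 0.126) and at 2.90 in progressor mouse 10 at −3 weeks (0 to 0.247). The other two were progressor mouse 2 at −3 weeks of batch 1, at 149 CPM (0.268 to 2.38), and progressor mouse 7 at onset of batch 2, at 4.13 CPM (0 to 0.137).

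The change with time in progressors differed between the batches by a test of the difference, with 7 members called, and this count fell to 0 without the 6-week library of mouse 5 of batch 1.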

How the results depend on the processing

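No called member changed sign when a mouse was left out. In some comparisons without a call, the median over the 40 members crossed 0 when a mouse was left out: −0.33 to 0.21 for NOD against NOR, −0.81 to 0.19 for progressors against nonprogressors at 6 weeks, −0.05 to 0.70 for onset in batch 1 and −1.22 to 0.05 for the NOD and NOR difference in time effect. In the others without a call it kept its sign. It was −1.74 to −1.10 for NOR over time and −2.41 to −0.80 for onset in batch 2. For −5 against −7 weeks it was −2.09 to −0.56, and for the difference between batches in nonprogressors 3.79 to 9.48. All 40 members stayed lower in batch 2 in every fit, and 37 to 39 members were higher at 14 than at 6 weeks in nonprogressors of batch 2 (30 to 38 when a mouse was left out, with 30 of the 38 called in each of those 7 fits). The count of 0 for NOD against NOR, NOR over time, progressors against nonprogressors at 6 weeks, onset in batch 1, the NOD and NOR difference in time effect and −5 against −7 weeks held in all settings run. The small counts did not hold. After 6 weeks in nonprogressors of batch 1, 1 call became 2 without the shallow 18-week library of mouse 3, and 0 to 10 when a mouse was left out. In progressors of batch 1, 6 calls became 1 without the filter, 0 with the replicate block, 1 without the 6-week library of mouse 5 and 1 to 9 when a mouse was left out. In progressors of batch 2, 7 calls became 29 with DESeq2, 4 without the filter, 2 with the replicate block and 0 to 14 when a mouse was left out. For onset in batch 2, 0 became 1 with DESeq2, and 0 to 1 when a mouse was left out. For the difference between batches in progressors, 7 became 30 with DESeq2, 0 without the filter, 0 without the 6-week library of mouse 5 and 0 to 24 when a mouse was left out. In nonprogressors, 0 became 5 with DESeq2, 1 without the 14-week library of mouse 5 and 0 to 38 when a mouse was left out. The causes were not tested. The replicate block changed no other call of these counts by over 1.5 times. Leaving out single libraries and the comparison of time effects between batches were chosen after seeing the data.

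Depth limits *Myh3*, *Myh7*, *Myh8*, *Casq2* and *Smpx*, whose medians lie under 1 CPM. The wide spread between libraries of a group limits the other members.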

Other observations

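The 6 nonprogressor libraries dated only by days since implantation entered no fold change. *Acta1* was at 0.163 and 1.23 CPM at 31 days, at 1477 and 761 CPM at 38 days and at 8.97 and 32.1 CPM at 108 days. *Myh4* was at 0.122 and 1.41 CPM at 31 days, at 1750.4 and 855 CPM at 38 days and at 11.3 and 37.3 CPM at 108 days. The slow chain *Myh7* was at most 0.578 CPM in all 6, also in the 38-day libraries with high *Myh4*.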
